A study of Mus musculus with 4 samples.

Results

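A second set of mammary tumor pools was compared with a first set to describe how far the pools of this study differ from each other in cell content and in the state of their RNA. All 4 arrays of the study were used, 2 per set, and the arrays were chosen by their set alone. Set 1 held 1 pool from St6gal1 null mice and 1 pool from wild-type littermates, and set 2 held another such pair. Each pool combined 3 tumors from 3 female C57BL/6 mice, 110 days old and 14 days after tumor onset. Every mouse, null or wild type, carried the polyoma virus middle T oncogene (PyV-mT), a transgene that drives mammary tumors. St6gal1 encodes the sialyltransferase that adds alpha2-6-linked sialic acid to N-glycans, and its loss is shared by the null pool of each set. Because each set holds 1 pool of each genotype, genotype was kept as a block, and the contrast is set 2 minus set 1 with n = 2 pools per set. The sets differ in animals, and no label says how else they differ, so animals, dissection, RNA handling and labelling cannot be told apart. The p-values weigh a set difference against how far the null and the wild-type pools disagree on it, with spread borrowed from other probe sets. With 1 pool per set and genotype, the spread between like pools is not measured. A shift shared by both pools of a set does not enter the error either.

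A mammary tumor of this kind is mostly luminal epithelium, with myoepithelial cells, fibroblasts that lay down collagen, fat, vessels, nerves, muscle of the body wall and leukocytes around and inside it. A pool therefore reads as the sum of these cells, and a gene that marks one of them moves with how much of it was dissected. In bulk RNA, fewer cells of a type and less RNA per cell cannot be told apart. The arrays read RNA that was copied into cDNA from its poly(A) tail, as the standard labelling for this array type does. Where RNA is broken or copied incompletely, probes far from the 3' end lose signal before probes close to it. Control transcripts with probe sets at the 5' end, in the middle and at the 3' end are on the array for this reason.

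The luminal keratins Krt8 and Krt18 were bright in all pools, between 101213 and 150715 for Krt8 and between 114320 and 139844 for Krt18, as labelled for mammary epithelium. Median intensities lay between 588 and 619. The brightest signal of 15 probe sets for Y-linked genes, which female mice lack, was 585, and was used as the level that unspecific signal can reach. Between 50.1% and 51.1% of probe sets read above it. The 18 probe sets of spiked-in hybridization controls differed between sets by a median of -0.01 (log2), from -0.50 to 0.17.

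The control transcripts Gapdh and beta-actin, which report on RNA state, separated the sets. The 3'/5' ratio of Gapdh, a glycolytic enzyme used as a reference transcript, was 0.873 (null) and 0.869 (wild type) in set 1, and 2.13 (null) and 1.57 (wild type) in set 2. Both pools of set 2 lay above both pools of set 1, and the geometric mean was 2.1-fold higher in set 2. The 5' probe set of Gapdh carried most of this, with 93601 and 101292 in set 1 against 46313 and 57794 in set 2. In this and every later pair of values of a set, the null pool comes before the wild-type pool. Its 3' probe set read 81729 and 88042 in set 1 and 98488 and 90814 in set 2, a smaller step in the opposite direction. For beta-actin, the cytoskeletal reference transcript, the 3'/5' ratio was 1.53 and 1.63 in set 1 and 2.12 and 1.96 in set 2, a 1.29-fold difference without overlap. Between the 3' end and the middle, beta-actin did not separate the sets, with 1.39 and 1.51 in set 1 and 1.49 and 1.43 in set 2. Between the middle and the 5' end it did, with 1.10 and 1.08 in set 1 and 1.42 and 1.37 in set 2. Gapdh differed in both stretches, with a 3'/middle ratio of 1.07 and 1.10 in set 1 and 1.66 and 1.39 in set 2. Transferrin receptor, another control transcript, went the other way at low signal. Its 3' probe set read 960 and 715 in set 1 and 572 and 237 in set 2. Its 5' probe set, below 585 throughout, read 244 and 182 in set 1 and 244 and 224 in set 2. For pyruvate carboxylase the 3' probe set read 1870 and 1384 in set 1 and 2062 and 2224 in set 2. Its 5' probe set read 818 and 483 in set 1 and 415 and 477 in set 2. The control ratios were not tested: with 2 arrays per set, the smallest two-sided p that an exact permutation allows is 0.333.

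**Figure D1:**
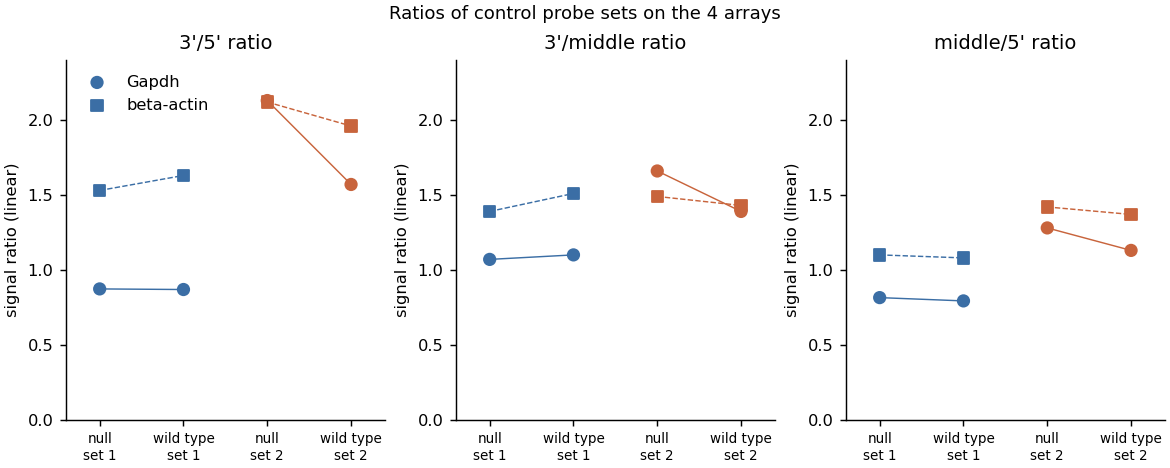
Ratios of control probe set signals (linear, vertical axis) on each of the 4 arrays, with blue for set 1 and orange for set 2, circles for Gapdh and squares for beta-actin. Gapdh lies higher in set 2 in all 3 panels, and beta-actin in the 3'/5' and the middle/5' panel only.

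Ribosomal RNA signal also parted the sets. The 18S rRNA control probe set at the 5' end read 4272 and 11503 in set 1 and 217 and 486 in set 2, the latter pair at or below the unspecific level of 585. Its middle probe set read 3499 and 5615 in set 1 and 708 and 1593 in set 2. The 3' probe set read 2600 and 4222 in set 1 and 835 and 910 in set 2. All 3 probe sets were thus lower in both pools of set 2, and the 18S signal within set 1 was itself higher in the wild-type pool. Ribosomal RNA carries no poly(A) tail. Whether its carry-over into labelling moved other signals was not tested. The control probe set for B1 repeats, short interspersed elements transcribed across the genome, read 138874 and 137021 in set 1 and 110720 and 110466 in set 2. The bright control for B2 repeats did not separate the sets, with 207474 and 238999 in set 1 and 231007 and 227580 in set 2, while a dimmer control named for b2 read 7456 and 7960 in set 1 and 5449 and 6615 in set 2.

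Of 22519 probe sets tested, 5295 were called between the sets (23.5%) by limma at an adjusted p under 0.05, 2496 higher (11.1%) and 2799 lower (12.4%) in set 2. The same fit called 1658 probe sets (7.36%) between the genotypes, from the same 4 arrays. Most of the called set differences were small, with a median size of 0.56 (log2), or 1.47-fold. A call with at least 2-fold difference was made for 855 probe sets, of which 164 were higher and 691 lower in set 2. Past 2-fold in both genotypes on their own were 70 probe sets higher and 396 lower, against 5 that went opposite ways. Set 2 thus lost signal over a longer range than it gained. Over all probe sets the set differences of the null pools and those of the wild-type pools correlated at r = 0.612 (rho = 0.586), across probe sets that share each array's labelling and scaling. These counts rest on 2 terms of the fit. Without the intensity trend, 0 probe sets were called (6233 at an unadjusted p under 0.05), and without the genotype block 369 were (4912 unadjusted). Leaving out any 1 array, which also removes the genotype term, left between 0 and 982 calls.

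**Figure D2:**
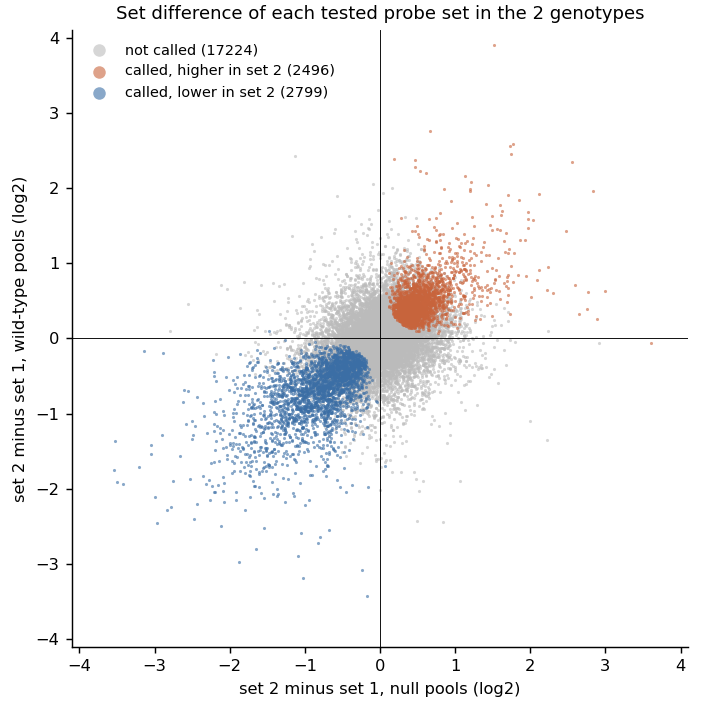
Each point is 1 of 22519 tested probe sets, with its set 2 minus set 1 difference (log2) in the null pools on the horizontal and in the wild-type pools on the vertical axis. Called probe sets (orange for 2496 higher, blue for 2799 lower in set 2) fill the lower left further from 0 than the upper right.

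Calls depended on brightness. When the tested probe sets were divided into 10 equal bins by mean signal, 8.7% were called in the dimmest and 40.9% in the brightest bin. Among the 2204 probe sets with no gene symbol, 5.17% were called higher, against 11.7% of the 19755 with a single symbol. Called lower were 265 of the former and 2441 of the latter, or 12% of each. Those with no symbol were also dimmer, with a median signal of 10.22 (log2) against 11.46. Counted by gene, with the brightest probe set of each of 11512 genes, 2644 were called (23.0%), 1677 higher (14.6%) and 967 lower (8.40%). Per gene the median difference was 0.10 (log2), 0.11 (null pools) and 0.09 (wild-type pools). These shares and this median are the background for the gene groups described further on.

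The genes with the largest rise in set 2, ranked by the smaller of the differences in the null and the wild-type pools, encode proteins of varied function. Rpf2, a ribosome biogenesis factor, read 1293 and 1163 in set 1 and 7778 and 6108 in set 2. The sets did not overlap and differed by 2.45 ± 0.15 (SE, log2; limma adjusted p = 8.12e-08), or 5.46-fold. The other 2 probe sets of Rpf2 differed by only -0.14 and 0.14. Cldnd1, a claudin-domain membrane protein, read 879 and 990 in set 1 and 3276 and 3665 in set 2, a 3.59-fold rise. A brighter Cldnd1 probe set fell by 0.87 (log2), from 29110 and 26440 to 12799 and 17854, and this was called too. Gga1, an adaptor of traffic from the Golgi, has a single tested probe set and rose 3.51-fold, from 1914 and 1422 to 6361 and 5483.

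Seh1l, a nuclear pore subunit, rose 3.55-fold on one probe set, from 943 and 735 to 3822 and 2464, while its other 5 ranged from -0.45 to 0.08. Cnot7, a deadenylase that shortens poly(A) tails, rose 3.16-fold, from 1511 and 1475 to 4750 and 4893, and its other 2 probe sets lay at 0.13, not called, and 0.45, called. Aldh2, the mitochondrial aldehyde dehydrogenase, rose 3.44-fold on a dim probe set (754 and 1046 to 3094 and 3243). Its brightest one read 35565 and 29046 in set 1 and 38289 and 30024 in set 2, a difference of 0.08 that was not called. A further Aldh2 probe set rose by 1.19, also a call, and another lay at -0.43, not called. For 6 further genes both arrays of set 1 lay at or below the unspecific level, so the rise is a bound against that level. It was at least 3.38-fold for Etf1, the translation release factor, at least 3.3-fold for Rreb1, a zinc finger transcription factor, and at least 3.28-fold for Pigb, an enzyme of GPI anchor synthesis. It was at least 2.28-fold for Map4k4, a kinase of the JNK pathway, at least 1.85-fold for Mrpl34, a mitochondrial ribosomal protein, and at least 1.8-fold for Ppp1r14b, a phosphatase inhibitor. Over the 11 of these 12 genes with other tested probe sets, 3 of 27 other probe sets were called higher and 2 lower, with a median of -0.05. Of all probe sets tested, 11.1% were called higher and 12.4% lower, so the share called higher was no larger here.

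Among the genes with the largest falls in set 2, other tested probe sets of a gene also moved less. Sesn3, a stress-induced regulator of mTORC1, read 28750 and 31555 in set 1 and 4148 and 6626 in set 2 and fell by 2.51 ± 0.11 (SE, log2; limma adjusted p = 1.29e-08), or 5.7-fold. Its other probe set read 7272 and 7592 in set 1 and 8762 and 8873 in set 2, a difference of 0.25 that was not called. Hnrnpab, an RNA-binding protein of the hnRNP family, fell 5.85-fold on one probe set, from 83472 and 143489 to 10469 and 33290. Its other 5 probe sets ranged from -0.42 to 0.13, and the brightest of them read 97430 and 93702 in set 1 and 111375 and 97573 in set 2. Sppl2a, an intramembrane protease, fell 5.88-fold, from 8765 and 11950 to 1197 and 2417, and its other 2 probe sets differed by -0.20 and -0.07. Lgals7, an epithelial galectin with a single tested probe set, fell 4.17-fold, from 14988 and 11080 to 3502 and 2671.

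Rapgef6, an activator of Rap GTPases, fell 4.61-fold from 2918 and 3924 to 574 and 850, of which the null value is below the unspecific level, while its other 2 probe sets differed by 0.04 and 0.06. The gene 2610507B11Rik fell 4.36-fold from 3834 and 3437 to 878 and 725, and its far brighter other probe set fell by 0.25, also a call. For the remaining 6 genes both arrays of set 2 were at or below the unspecific level. Their falls were at least 3.71-fold for Akt1s1, a subunit of mTORC1, at least 2.74-fold for Sntb2, a syntrophin, and at least 2.26-fold for Polr1a, the large subunit of RNA polymerase I. For Coro1c, an actin-binding coronin, the bound was 2.14-fold, for Wdr33, which binds the polyadenylation signal, 2.1-fold, and for Ccny, a cyclin, 2.08-fold. Akt1s1 had another dim probe set that was called higher, with 311 and 501 in set 1 and 771 and 953 in set 2, and a brighter one at -0.15. Of 26 other probe sets of these genes, 7 were called lower and 2 higher, with a median of -0.14. Among the 7 called lower were all 3 others of Sntb2, from -1.54 to -0.29. The share called lower was above the 12.4% of all probe sets tested, of which 11.1% were called higher.

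**Figure D3:**
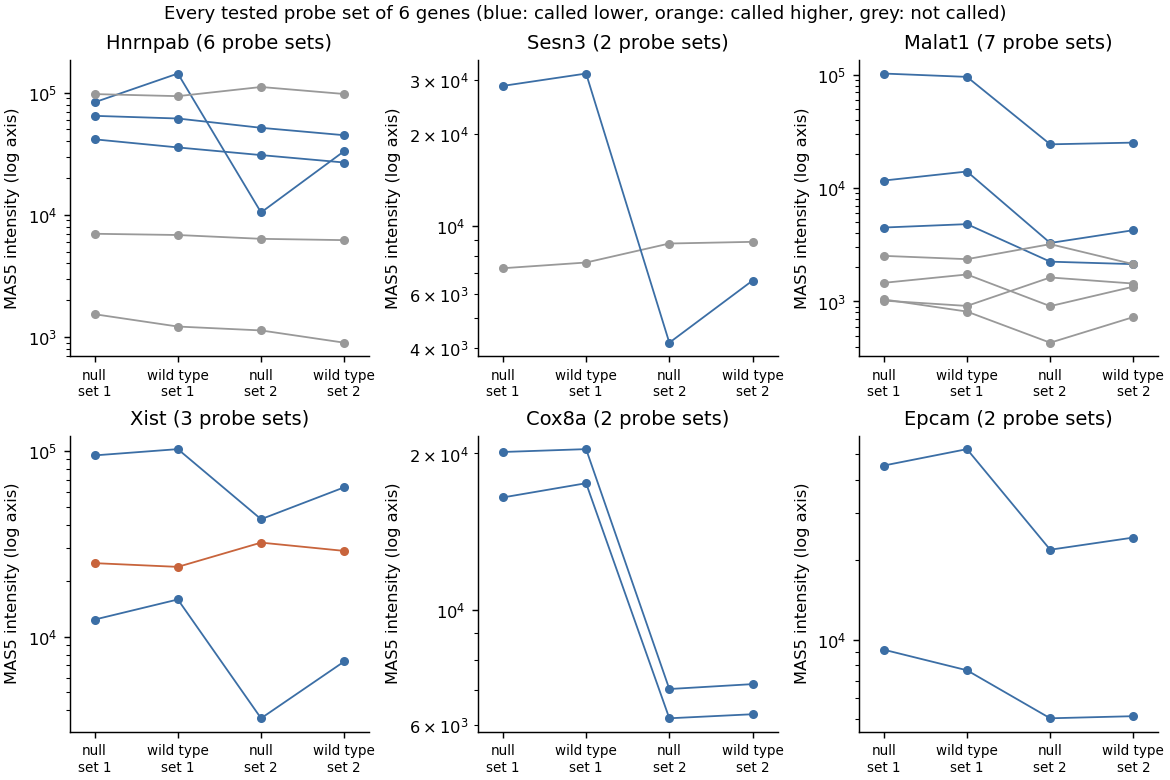
Intensity (log axis) on the 4 arrays of every tested probe set of Hnrnpab, Sesn3, Malat1, Xist, Cox8a and Epcam, each line being 1 probe set. In Hnrnpab, Sesn3, Malat1 and Xist some probe sets fall in set 2 and others do not, while both probe sets of Cox8a and of Epcam fall.

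Disagreement between probe sets of a gene was common in the set contrast. Of 5035 genes with at least 2 tested probe sets, 2463 had a set call, and 299 of these (12.1%) had calls in both directions. For the genotype contrast in the same arrays, 710 had a call and 7 (0.986%) had calls in both directions. The set differences of the brightest and the next brightest probe set of a gene correlated at r = 0.129 (rho = 0.125) across these genes, and their genotype differences at r = 0.536 (rho = 0.416). The median gap between the pair was 0.33 (log2) for the sets and 0.17 for the genotypes. Where the brightest probe set was called and at least 2-fold, which held for 81 genes, its median size was 1.15 and the next probe set moved by a median of 0.10 along its direction. For the genotypes the corresponding 71 genes had medians of 1.24 and 1.07. In the set contrast 47 of the 81 next probe sets went the same way and 18 were called, against 68 and 44 of 71 for the genotypes. The 3'/5' ratios of Gapdh and beta-actin moved with the set as well. Where the probes of each set lie along their transcripts was not used here, so the part of RNA state in these gaps was not tested.

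**Figure D4:**
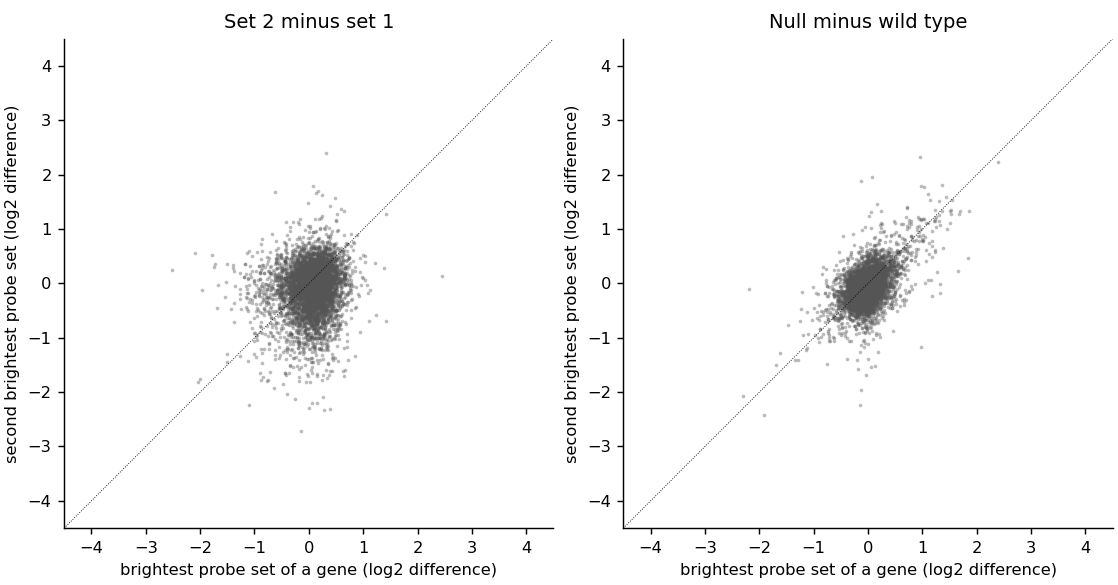
Each point is 1 of 5035 genes, with the log2 difference of its brightest probe set on the horizontal and of its next brightest on the vertical axis, for the sets (left) and the genotypes (right). The left cloud is round (r = 0.129) and the right one runs along the dotted line of equality (r = 0.536).

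A smaller group of genes moved on all of their probe sets. Among the 5035 genes with at least 2 tested probe sets, 2463 had a set call. Every tested probe set was called the same way for 159 of these, 61 higher and 98 lower in set 2. For the genotypes 122 of the 710 genes with a call met this, a larger share. The genes named from this group were chosen after their values were seen. Cox8a, a subunit of cytochrome c oxidase, read 20132 and 20390 in set 1 and 7027 and 7182 in set 2 on its brighter probe set. It fell by 1.51 ± 0.09 (SE, log2; limma adjusted p = 6.32e-08) there and by 1.44 on the other. Spint2, an epithelial serine protease inhibitor, read 44885 and 49324 in set 1 and 18562 and 20390 in set 2, and its 2 probe sets fell by 1.27 and 1.34. Both genes had tightly matched pools within each set and no overlap between sets. Sdc4, the heparan sulfate proteoglycan syndecan 4, fell by 1.09 and 2.23, and H2ac19, a histone H2A gene, by 1.30 and 1.51. Cap1, which recycles actin monomers, read 1046 and 3305 in set 1, far apart, and 330 and 538 in set 2, both below the unspecific level, so that its fall on that probe set was at least 3.04-fold. Ctnnd1, the catenin that binds E-cadherin, fell 1.89-fold and 2.01-fold, and Rbm47, an epithelial RNA-binding protein, 2.16-fold and 2.69-fold.

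Among genes that rose on all probe sets, Ackr4, a scavenger receptor for the chemokines of the CCR7 axis, read 672 and 1029 in set 1 and 2286 and 2308 in set 2. It rose by 1.42 ± 0.23 (SE, log2; limma adjusted p = 0.000562) and by 1.28 on the other probe set. Rexo4, an exonuclease-family protein, rose by 0.89 on both of its probe sets. Notch3, the Notch receptor of mural cells and of some mammary progenitors, rose by 0.52 and 1.28, from 2268 and 1889 to 4654 and 5582 on the latter. Nectin2, an adhesion molecule of cell junctions, rose by 0.60 and 0.71, and Smarcb1, a SWI/SNF subunit, by 0.50 and 1.16. All 4 probe sets of Ldhb, a lactate dehydrogenase subunit, rose by 0.44 to 0.66, and all 3 of Actn1, an actin crosslinker, by 0.50 to 0.75. Ldhb was also higher in the wild-type pool within each set on all 4 probe sets, and its sets did not overlap on any of them.

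Probe sets of long nuclear RNAs disagreed as well. Malat1, a long noncoding RNA retained in nuclear speckles, read 102584 and 95845 in set 1 and 24357 and 25222 in set 2 on its brightest probe set and fell by 2.00 ± 0.09 (SE, log2; limma adjusted p = 1.29e-08), or 4-fold. Of its other 6 probe sets, 2 were also called lower, by 1.76 and 1.07. The remaining 4 were not called and ranged from -0.67 to 0.64. Xist, the noncoding RNA that coats the inactive X chromosome, read 94512 and 102157 in set 1 and 42840 and 63641 in set 2 and fell by 0.91. A further Xist probe set fell by 1.43, and the third rose by 0.33, from 24841 and 23716 to 32044 and 28908, each a call. The opposite calls of Xist come from the same pools, all of them from female mice. Neat1, the RNA of paraspeckles, differed by 0.26 and was not called. Of 8 noncoding RNAs tested on their brightest probe set, 0 rose and 2 fell, with a median of -0.02. Their summed signal in set 2 was 0.594 of that in set 1.

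Among lists with at least 5 genes tested, fibroblast and fibrillar matrix genes had the highest median on the brightest probe set of each gene. With the mean of all tested probe sets of a gene it was 0.28, below the 0.32 of T and NK cell genes. Of 23 members tested, 12 were called higher (52.2%) and 1 lower, against 14.6% and 8.40% of all genes. The median was 0.35 (log2), against 0.10 for all genes, with values of 0.27 (null pools) and 0.24 (wild-type pools). Thy1, a surface glycoprotein of fibroblasts, read 6897 and 3008 in set 1, and 11716 and 4618 in set 2, a rise by 0.69 ± 0.11 (SE, log2; limma adjusted p = 0.000445). Pdgfra, the receptor that marks stromal fibroblasts, read 4167 and 1920 in set 1 and 6228 and 2841 in set 2, a rise by 0.56. Fap, the protease of activated fibroblasts, rose by 0.56, Lum, a keratan sulfate proteoglycan, by 0.40, and Postn, periostin, by 0.37. Loxl1, which crosslinks elastin, rose by 0.39, Col1a1, the main chain of collagen I, by 0.36, and Col5a2 by 0.35. The other probe set of Col5a2 differed by 0.13 and was not called.

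In each of these genes the null pool was higher than the wild-type pool within both sets, and the null pool of set 1 read above the wild-type pool of set 2 and the sets overlapped. The calls rest on the terms of the fit, as did those of all probe sets: 12 members were called higher with the genotype block and 0 without it. Without the block 71 of 22519 probe sets were called higher, and without the intensity trend 0 were. A count of 0 members there is thus near the share of all probe sets and says nothing of this list alone. The summed signal of the list was 665053 and 366008 in set 1 and 799545 and 409103 in set 2, 1.17-fold between sets and 1.89-fold between genotypes. Within each genotype the pool of set 2 was thus the higher one. Sparc, the matrix glycoprotein osteonectin, rose by 0.30 on its brightest probe set and was called lower on the other, at -0.46. Col12a1, a collagen associated with fibrils, fell by 1.35 on its brightest probe set, from 3559 and 3291 to 1285 and 1338, and differed by -0.05 on the other. Dcn, decorin, differed by -0.21 and Col3a1 by 0.09, neither a call.

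The 3 chains of collagen VI, which assemble into 1 microfibril, moved by like amounts on their brightest probe sets. Col6a1 read 13006 and 4806 in set 1 and 17911 and 6957 in set 2, and rose by 0.49 ± 0.09 (SE, log2; limma adjusted p = 0.00157). Col6a2 read 16355 and 5720 in set 1 and 22077 and 7792 in set 2, and rose by 0.44. The other tested probe set of Col6a2 differed by 0.28 and was not called. Col6a3 read 10862 and 4092 in set 1 and 16107 and 5508 in set 2, and rose by 0.50. Their promoter windows, from 250 bases before to 50 bases after the gene start, are shown because these brightest probe sets moved together. They are credited to RefSeq, build GRCm38.p6, each read along the gene's minus strand, with the letters CCTCCC or the reverse complement GGGAGG in capitals. Col6a1 lies at chr10:76725995-76726294, Col6a2 at chr10:76623355-76623654 and Col6a3 at chr1:90843922-90844221.
Col6a1: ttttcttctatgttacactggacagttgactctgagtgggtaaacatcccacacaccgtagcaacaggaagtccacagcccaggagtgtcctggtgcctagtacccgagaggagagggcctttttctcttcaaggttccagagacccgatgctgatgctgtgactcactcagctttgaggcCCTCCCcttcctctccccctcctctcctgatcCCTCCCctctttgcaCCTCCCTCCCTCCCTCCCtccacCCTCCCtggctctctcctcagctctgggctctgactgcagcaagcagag
Col6a2: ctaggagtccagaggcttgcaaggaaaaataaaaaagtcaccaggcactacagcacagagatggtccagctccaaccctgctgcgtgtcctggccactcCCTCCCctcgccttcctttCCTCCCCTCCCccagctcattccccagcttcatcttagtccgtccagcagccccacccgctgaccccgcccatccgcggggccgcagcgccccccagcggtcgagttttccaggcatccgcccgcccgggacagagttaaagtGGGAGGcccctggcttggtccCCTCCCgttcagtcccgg
Col6a3: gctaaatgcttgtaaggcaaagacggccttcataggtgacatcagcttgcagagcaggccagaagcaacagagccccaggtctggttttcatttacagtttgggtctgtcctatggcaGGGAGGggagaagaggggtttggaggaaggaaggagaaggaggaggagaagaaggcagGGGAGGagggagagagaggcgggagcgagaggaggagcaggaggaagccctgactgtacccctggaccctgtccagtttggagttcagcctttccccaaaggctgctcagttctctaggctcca
These windows hold 7, 5 and 2 matches on either strand, counted with overlaps. A further start of Col6a2 has a window at chr10:76623581-76623880 with 1 match, not shown. Of 32851 mouse promoter windows of this length, 42.4% hold at least 1. None of the shown windows holds CCAAT (in 37.4% of windows) or TATAAA (in 13.6%) on either strand. A match of letters is a description and says nothing of a factor bound there.

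Of 10 adipocyte genes tested, 2 rose (20.0%) and 1 fell, against 14.6% and 8.40% of all genes, with a median of 0.02. Pnpla2, the triglyceride lipase, rose by 0.64, from 10416 and 10426 to 16084 and 16466, and Plin4, a lipid droplet protein, by 0.50. Fabp4, the fatty acid binding protein of fat cells, fell by 0.32, from 36602 and 15850 to 27813 and 13390, and Adipoq, the adipocyte hormone adiponectin, differed by -0.24. The summed adipocyte signal was 1.03-fold between sets and 2.06-fold between genotypes. Of 3 brown fat genes tested, Cox8b, a cytochrome oxidase subunit of brown fat and muscle, fell by 0.78. Of 13 skeletal muscle genes, 0 rose and 1 fell (7.69%, against 8.40% of all genes), Tnni2 (fast troponin I), by 1.10. Tnni2 read 1469 and 881 in set 1 and 1038 and 236 in set 2, the last value below the unspecific level. Its sets overlapped, with differences of -0.48 (null pools) and -1.72 (wild-type pools). The other probe set of Tnni2 differed by -0.34 and was not called. Acta1 differed by -0.10.

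Of 13 endothelial genes, 0 were called in either direction, against 14.6% higher and 8.40% lower of all genes, with a median of 0.21. Their differences ranged from 0.43 for Emcn, a sialomucin of venous and capillary endothelium, to -0.40 for Cdh5, the endothelial cadherin. Of 7 genes of pericytes and vascular smooth muscle, 1 rose (14.3%), Notch3, and 0 fell. Pdpn, podoplanin of lymphatic endothelium and fibroblasts, rose by 0.53, from 8771 and 9533 to 14377 and 12157, the single call among 4 lymphatic genes. Of 5 nerve genes tested, 2 rose, above the 14.6% of all genes, Sox10 by 0.41 and S100b by 0.56. The other probe set of S100b differed by -0.32 and was not called. Sox10, a transcription factor of Schwann cells, is also expressed in mammary progenitors.

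**Figure D5:**
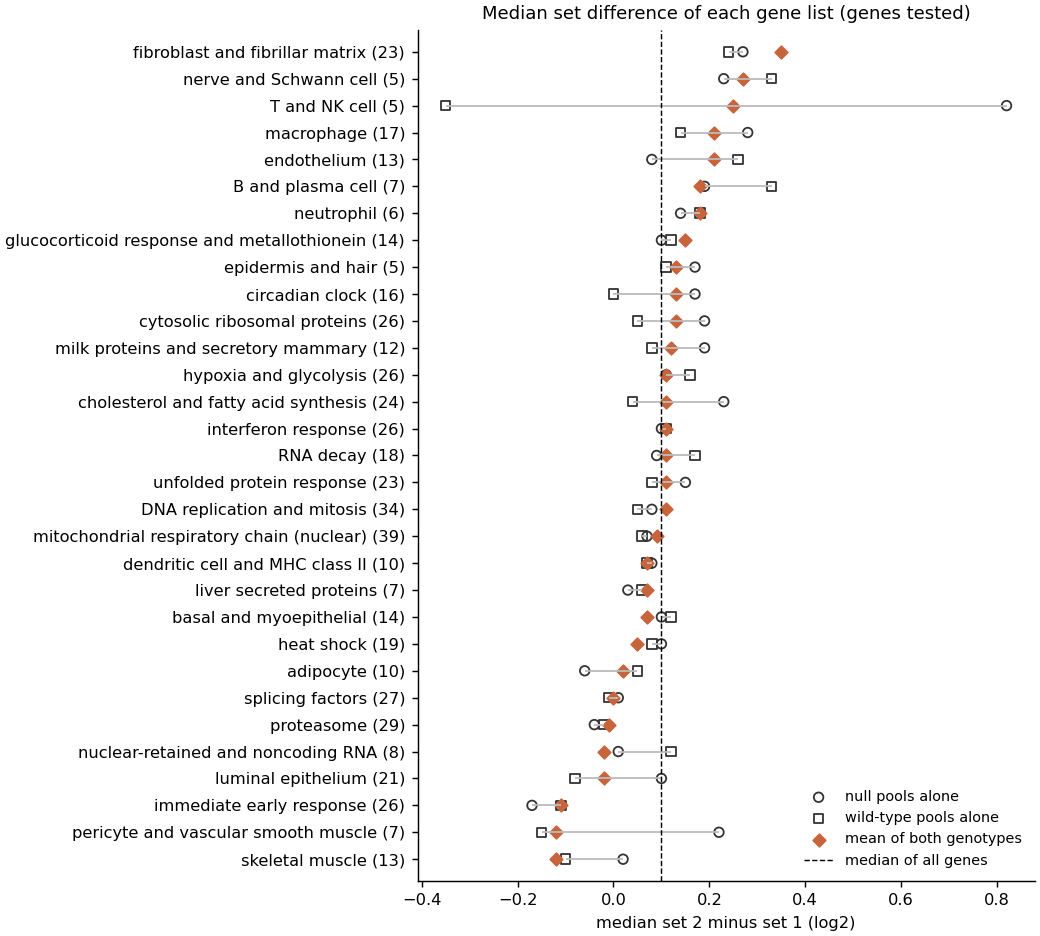
Median set 2 minus set 1 difference (log2, horizontal axis) of each gene list with at least 5 genes tested (number in brackets), for the null pools (open circles), the wild-type pools (open squares) and both (filled diamonds). Most lists lie near the dashed line, the median of all genes at 0.10, with the fibroblast list at 0.35 and skeletal muscle at -0.12.

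The epithelium held opposite calls among its defining markers. Of 21 luminal genes tested, 4 rose and 3 fell, with a median of -0.02. Their summed signal in set 2 was 0.999 of that in set 1. Kit, the receptor of luminal progenitors, read 25010 and 30247 in set 1 and 39528 and 43961 in set 2, a rise by 0.60. Its other probe set differed by 0.01 and was not called. Gata3, the transcription factor of luminal identity, rose by 0.58, Cldn7, a claudin of tight junctions, by 0.53, and Elf5, a factor of alveolar cells, by 0.27. Another probe set of Elf5 was called lower, at -0.46. Ehf, an epithelial ETS factor, read 36556 and 42269 in set 1 and 15384 and 19853 in set 2 and fell by 1.17 ± 0.08 (SE, log2; limma adjusted p = 3.7e-07). Epcam, the epithelial adhesion molecule, read 45381 and 52347 in set 1 and 21835 and 24274 in set 2 and fell by 1.08, and by 0.71 on its other probe set. All 4 probe sets of Cldn3, another claudin, fell, by 0.31 to 1.15. The keratins Krt8, Krt18, Krt19 and Krt7 differed by 0.28, -0.08, 0.04 and -0.02 and were not called. The other 2 probe sets of Ehf, both called, lay at -0.79 and 0.36.

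Of 14 basal and myoepithelial genes, 3 rose (21.4%) and 1 fell (7.14%), against 14.6% and 8.40% of all genes, with a median of 0.07. Lama3, a laminin chain of the basement membrane, rose by 0.61, and Acta2, smooth muscle actin, by 0.27. Tagln, which binds the same actin filaments, fell by 0.58, from 31618 and 32914 to 21482 and 21763. The basal keratins Krt5 and Krt14 differed by -0.13 and -0.10, neither a call. Among 12 genes of milk secretion 2 rose (16.7%) and 0 fell. Lalba, the milk protein alpha-lactalbumin, read 62482 and 42860 in set 1, and 129061 and 101093 in set 2. It rose by 1.14 ± 0.09 (SE, log2; limma adjusted p = 1.03e-06) without overlap, or 2.21-fold. Ltf, lactoferrin, rose by 0.40, while Csn3 (kappa-casein) at 0.28 and Wap (whey acidic protein) at -0.32 were not called.

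Of 17 macrophage genes tested, 7 were called higher (41.2%, against 14.6% of all genes) and 2 lower, with a median of 0.21, 0.28 (null pools) and 0.14 (wild-type pools). Lyz2, lysozyme of myeloid cells, read 37524 and 38780 in set 1 and 50632 and 55564 in set 2, a rise by 0.48 ± 0.08 (SE, log2; limma adjusted p = 0.000996). The signalling adaptors Fcer1g and Tyrobp rose by 0.49 and 0.35, and Adgre1, an adhesion receptor of macrophages, by 0.33. Mrc1, the mannose receptor, rose by 0.42, Cd14, a co-receptor for endotoxin, by 0.30, and Ctss, a lysosomal protease, by 0.29. Lyz2, Fcer1g, Tyrobp, Adgre1 and Ctss did not overlap between sets, while Mrc1 and Cd14 did. Aif1, a calcium-binding protein of macrophages, fell by 0.71, from 5729 and 4445 to 3561 and 2650. C1qc, a chain of complement C1q, fell by 0.34, while C1qa and C1qb, its partner chains, differed by -0.06 and 0.15 and were not called. The summed signal of the list was 298927 and 295273 in set 1 and 343925 and 341398 in set 2, a 1.15-fold difference. As with the fibroblast list, 0 macrophage genes were called higher without the genotype block or without the trend. Over all 22519 probe sets these fits called 71 and 0 higher, so the counts say nothing of this list alone.

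Antigen presentation genes gave 3 rises and 1 fall among 10. Cd74, the invariant chain, rose by 0.42, Itgax, an integrin of dendritic cells, by 0.33, and H2-Aa by 0.28, while H2-Eb1 fell by 0.31. H2-Aa was called both ways, since further probe sets rose by 0.68 and fell by 0.76. Of 5 T and NK cell genes, 0 were called, and Gzma, Gzmb and Zap70 differed by 0.46, 0.42 and 0.25. Of 7 B and plasma cell genes, Ighm, the IgM heavy chain, rose by 0.40, and its other probe sets ranged from -0.18 to 0.13. Of 6 neutrophil genes Ltf alone was called. Genes of epidermis (5 tested) and of salivary and lacrimal gland (4 tested) had 0 calls.

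Immediate early genes, which respond within minutes to handling or growth factors, were called in both directions. Of 26 tested, 5 were higher (19.2%) and 7 lower (26.9%), against 14.6% and 8.40% of all genes. Their median was -0.11. Junb, an AP-1 subunit, read 6793 and 6839 in set 1 and 3675 and 2872 in set 2 and fell by 1.06 ± 0.13 (SE, log2; limma adjusted p = 3.79e-05). Ier2 fell by 0.79, Egr3 by 0.81, Klf6 by 0.74, and Ccn1, a matricellular protein, by 0.72. Fos, the partner of Junb in AP-1, read 13969 and 13956 in set 1 and 20579 and 19863 in set 2, a rise by 0.53. Atf3 rose by 0.62, Egr1 by 0.40 and Jund by 0.29. Btg2 rose by 0.42 on its brightest probe set, and its other one was called lower, at -1.61. Fos and Egr1 on one side and Junb and Ier2 on the other held their direction in both genotypes and did not overlap between sets.

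Genes of protein folding were likewise split. Of 23 genes of the unfolded protein response, 6 rose (26.1%) and 2 fell (8.7%), against 14.6% and 8.40% of all genes. Their median was 0.11. Pdia4, a disulfide isomerase of the endoplasmic reticulum, read 2227 and 3514 in set 1 and 12627 and 9502 in set 2, a rise by 1.95 ± 0.18 (SE, log2; limma adjusted p = 3.17e-06), or 3.87-fold. Sdf2l1, which acts in the same chaperone complex, read 2841 and 2685 in set 1 and 964 and 794 in set 2 and fell by 1.61. Hspa5, the chaperone BiP, rose by 0.40, Calr, calreticulin, by 0.42, and Pdia3, its partner, by 0.47. Further probe sets of Hspa5, at -0.01 and 0.27, were not called. Hyou1 rose by 0.63 on its brightest probe set, and its other one was called lower, at -1.62. Of 19 heat shock genes, 5 rose (26.3%) and 2 fell (10.5%). Hsph1 rose by 0.50 and Hspa8, the constitutive HSP70, by 0.41 on their brightest probe sets, while another probe set of each was called lower, at -0.59 and -0.47. Stip1, which bridges HSP70 and HSP90, fell by 0.46, and the inducible Hspa1a and Hspa1b differed by -0.05 and -0.04.

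Of 34 genes of DNA replication and mitosis 4 rose (11.8%) and 1 fell (2.94%), both below the 14.6% and 8.40% of all genes. Their median was 0.11. Foxm1, the transcription factor of mitotic genes, rose by 0.76, Aurkb, a mitotic kinase, by 0.65, Cdc20, which starts anaphase, by 0.42 and Mcm7, a replicative helicase subunit, by 0.32. The other 3 Mcm7 probe sets, from -0.04 to 0.24, were not called. Mcm2, of the same helicase, fell by 0.82 on its brightest probe set. This fall came from the wild-type pools (8471 to 2575) and not from the null pools (4500 to 4699). The other Mcm2 probe set differed by -0.07 and was not called. Mki67 and Top2a differed by 0.12 and 0.11, neither a call. Of 26 interferon response genes, 5 rose (19.2%) and 3 fell (11.5%). Oas2, an antiviral RNA sensor, rose by 0.79, and Bst2, tetherin, fell by 0.99, from 11290 and 8822 to 5439 and 4620. Of 26 genes of hypoxia and glycolysis, 4 rose (15.4%) and 1 fell (3.85%). Car9, a carbonic anhydrase induced by hypoxia, rose by 0.42, and Ndrg1 fell by 0.58 with other probe sets from -1.20 to 0.07. The 24 genes of sterol and fatty acid synthesis split 3 and 3 (12.5% each). Srebf2, the factor that drives sterol genes, rose by 0.66 and Fasn, fatty acid synthase, by 0.42. Insig1, which restrains Srebf2, fell by 0.83. Of 16 circadian clock genes 1 rose and 1 fell (6.25% each). Of 14 genes of the glucocorticoid response 1 rose (7.14%) and 2 fell (14.3%), among them Mt2, a metallothionein, by 0.72.

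In complexes whose subunits are assembled in fixed proportion, single members were called. Of 29 proteasome subunits, 0 rose and 5 fell (17.2%), against 14.6% and 8.40% of all genes, with a median of -0.01. Psmb2, a subunit of the core ring, read 11263 and 12012 in set 1 and 3720 and 4403 in set 2 and fell by 1.51 ± 0.10 (SE, log2; limma adjusted p = 2.17e-07), or 2.85-fold. Psmd7, of the regulatory lid, fell by 0.86, from 13953 and 13353 to 6936 and 8101. On their brightest probe sets the other 3 called subunits, Psmb4, Psma4 and Psmb3, fell by 0.37, 0.36 and 0.27. The 24 not called ranged from -0.27 to 0.24. Another probe set of Psmb3 was called lower by 1.38, from 20269 and 20009 to 6639 and 8962, and another of Psmb4 by 0.53. Psmb5 and Psmb7, of the same ring as Psmb2, differed by 0.16 and -0.05 and were not called.

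Of 39 nuclear-encoded subunits of the respiratory chain, 7 rose (17.9%) and 3 fell (7.69%), against 14.6% and 8.40% of all genes. Their median was 0.09. Ndufa4 read 15014 and 19514 in set 1 and 5691 and 6095 in set 2 and fell by 1.53. Uqcrh, of the cytochrome bc1 complex, which read 63191 and 56516 in set 1 and 28956 and 30944 in set 2, fell 2.0-fold, and its other probe set fell by 0.91 (log2). Uqcrc1, of the same complex, rose by 0.46, as did Ndufs3 of complex I. Cox7c, of cytochrome c oxidase, rose by 1.06 on a dim probe set, from 924 and 637 to 1644 and 1648. Of 26 cytosolic ribosomal proteins, 1 rose (Rps3, by 0.31) and 5 fell, or 3.85% and 19.2%, and the median was 0.13. Rpl27 fell by 0.67, from 126593 and 132945 to 77211 and 86529, and Rps19 fell by 0.66.

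Genes of RNA processing also split. Of 27 splicing factors, 5 rose (18.5%) and 6 fell (22.2%), against 14.6% and 8.40% of all genes. Their median was 0, or -0.31 with the mean of all tested probe sets of a gene. Srsf1 fell by 0.98, from 45731 and 40835 to 24017 and 20030, and its other 5 probe sets ranged from -1.10 to 0.06. Luc7l2 fell by 0.69 with others from -0.43 to 0.16, and Hnrnph1 rose by 0.50 with another probe set at -0.51. Of 18 genes of RNA decay, 4 rose (22.2%) and 3 fell (16.7%). Ang, the secreted ribonuclease angiogenin, rose by 0.97, from 4813 and 3564 to 8404 and 7914, and Dcp1a, of the decapping complex, by 0.94. The other probe set of Ang differed by 0.11 and was not called. Xrn2, the nuclear exonuclease that degrades RNA from the 5' end, fell by 1.14 on its brightest probe set and differed by -0.10 and 0.12 on the other pair. Xrn1, its cytoplasmic counterpart, fell by 0.83.

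St6gal1 itself was not called between the sets. Its probe set read 2337 and 2330 in set 1 and 3642 and 2796 in set 2, a difference of 0.44 ± 0.16 (SE, log2; limma adjusted p = 0.0573). The labels do not say which exons are missing in the null mice, so this probe set does not check the genotype.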

How the data were processed

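Total RNA of 4 tumor pools was hybridised to Affymetrix mouse whole-genome arrays, 1 colour, 1 pool per array. The deposited values are linear intensity values per probe set, made by the authors with MAS5 per the submitters' processing notes, with no version number in the sources used here. MAS5 scales each array, and all 4 had a trimmed mean of 2500.01 (2% at each end), so the values were used as deposited. Precision is limited by having 4 arrays.

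Of 45101 probe sets, 64 controls were left out of the fit. Intensities became log2(value + 44), 44 being the 10th percentile, so folds understate changes of dim genes. Those whose mean log2 value reached the median, 22519 in number, were tested with limma 3.58.1 in R 4.3.3 (lmFit and eBayes with an intensity trend, set and genotype as terms, Benjamini-Hochberg adjustment, threshold 0.05), with 1 residual and 13.5 prior degrees of freedom. Symbols come from the platform annotation (34945 probe sets with 1 symbol, 932 with several, 9160 with none), and probe sets without a single symbol were not named. Some probe sets, those with a shared-sequence suffix, can read related genes. A list uses the brightest probe set per gene, with the mean of all tested probe sets of a gene as an alternative. A gene not above 585 in both arrays of its dim set has a fold bound against 585.

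The genotype block pairs the set 1 and set 2 pools of a genotype, which come from different animals. The design text pairs pools within sets, which is another pairing. Named were up to 12 genes higher and 12 lower, ranked by the smaller of the 2 within-genotype differences among called probe sets, without immunoglobulins and genes whose brighter set was at or below 585, then at most 4 members of each list, those with the largest differences, and defining or opposite-going members. Further called members of the lists, and genes called on all probe sets, were named after their values were seen. The comparison, members and lists were chosen with earlier results of these data known. Alternatives were quantile and cyclic loess normalization, filters, pseudocounts 16 and 200, no trend, no genotype block, each genotype alone and leaving out each array. The counts of called fibroblast and macrophage genes under these were added after seeing the data.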

Additional observations from a re-analysis of the deposited data

Results flagged for a closer look

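For 6 gene lists the median set difference (set 2 minus set 1, log2) had opposite signs in the 2 genotypes. With 1 pool per set and genotype, the difference between the genotypes was not tested. The T and NK cell list had medians of 0.82 (null pools) and -0.35 (wild-type pools) over 5 genes of low signal, and its summed signal was 4647 and 5718 in set 1 and 8476 and 4267 in set 2, null before wild type. Genes of pericytes and vascular smooth muscle had 0.22 (null pools) and -0.15 (wild-type pools). Luminal epithelium had 0.10 and -0.08, adipocyte genes -0.06 and 0.05, skeletal muscle 0.02 and -0.10, and splicing factors 0.01 and -0.01, null before wild type.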

How the results depend on the processing

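Between 4237 and 5516 probe sets were called between the sets under quantile or cyclic loess normalization, with no filter or the stricter filter on dim probe sets, and with pseudocounts of 16 and 200. The calls rest on the terms of the fit. Without the intensity trend in eBayes the counts were 0 called, 0 higher and 0 lower, with 0 fibroblast and 0 macrophage genes called higher, and 6233 probe sets had an unadjusted p under 0.05. Without the genotype block, which pairs the pools of a genotype, 369 were called, 71 higher and 298 lower, with 0 fibroblast and 0 macrophage genes higher. Leaving out each array in turn, which also drops the genotype term, gave 0 to 982 called, 0 to 120 higher and 0 to 862 lower, and 0 fibroblast and 0 macrophage genes higher. A set is then 1 pool of 1 genotype, so the genotype difference enters the set difference. The lone pool is assumed to vary like the other pair, and genes that differ between genotypes turned sign. They ranged (log2) from -0.58 to 1.29 for Col1a1, -0.17 to 0.88 for Col5a2, -0.22 to 1.21 for Col6a1, -0.32 to 1.19 for Col6a2, -0.27 to 1.27 for Col6a3, -0.03 to 1.16 for Fap, -0.51 to 1.29 for Loxl1, -0.73 to 1.52 for Lum, -0.09 to 0.83 for Postn, -0.14 to 0.98 for Mrc1, -0.28 to 1.27 for Plin4 and -0.92 to 0.28 for Fabp4. In the null pools alone the brightest Mcm2 probe set differed by 0.06. Of 159 named probe sets, 156 kept their call under quantile and 150 under cyclic loess normalization, 143 without the filter and 42 without the genotype block. With the mean of all tested probe sets of a gene in place of the brightest, 16 list medians moved by more than the spread between genotypes and 20 did not, beside a median over all genes of 0.05. The splicing median became -0.31, the adipocyte median -0.18 and the heat shock median -0.07, and the fibroblast median 0.28. Under quantile and cyclic loess normalization 9 list medians each moved. With the stricter filter 218 genes had probe sets called both ways. The Gapdh ratio was 2.09-fold under both normalizations and the beta-actin ratio 1.17-fold under quantile normalization. Dim probe sets gave few calls, so that smaller differences there were not detectable.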
